A study of Mus musculus with 28 samples.

Results

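The AP-1 family described here is 8 of the 22919 genes in the deposited comparisons: Fos, Fosb, Fosl1 and Fosl2, Jun, Junb and Jund, and Batf3. They were taken by gene name, and every member had reads. AP-1 is a transcription factor made of 2 basic leucine zipper proteins. Fos proteins bind DNA only with a partner, mostly a Jun protein, whereas Jun proteins can also pair with each other, and Batf3 is a smaller relative that pairs with Jun proteins. In neurons Fos, Fosb and Junb are textbook immediate-early genes, switched on within minutes of firing through calcium, the kinases it activates and factors such as CREB, SRF and MEF2 that already sit on their promoters. The products then bind the sequence TGACTCA in later genes.

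Transcription was measured by Bru-seq, which captures RNA labelled with bromouridine. Mixed cultures of neurons, astrocytes and oligodendrocyte precursors were made from cortex and hippocampus of CD1 mouse embryos (embryonic day 18), tissue of several embryos being pooled for each replicate at a matched sex ratio. All cultures carried a lentiviral shRNA from day in vitro 14, either a control (shCtrl) or one against Rai1, a chromatin protein (shRai1). On day 17 each arm received for 4 hours water as vehicle, 1 µM tetrodotoxin (TTX), which blocks sodium channels and so action potentials, or 20 µM bicuculline (BIC), which blocks GABA-A receptors and raises firing. Bromouridine was present at 2 mM for the last 20 minutes. The 16 libraries form 6 groups of 3, except that shCtrl with vehicle and shCtrl with BIC have 2 libraries each. These are replicates 1 and 2 of vehicle and 2 and 3 of BIC, so the 2 groups of the control response to BIC share only replicate number 2.

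Promoter sequence is shown for 3 members whose responses to activity differ: Fos and Junb, whose vehicle level in shCtrl was nearer to that with BIC, and Jun, whose vehicle level was nearer to that with TTX. RefSeq (GRCm38.p6) gave a promoter for 7 of the 8 members, all but Fosl1. Each line is the 250 bases before the start of transcription, 5′ to 3′ along the gene. They lie at chr12:85473640-85473889 (plus strand) for Fos, chr8:84978749-84978998 (minus strand) for Junb and chr4:95052223-95052472 (minus strand) for Jun. Capitals mark TGACG, the core of the cyclic AMP response element that CREB binds, in Fos and Junb. In Jun they mark TGACATCA, a variant AP-1 site, and a MEF2 motif.
Fos: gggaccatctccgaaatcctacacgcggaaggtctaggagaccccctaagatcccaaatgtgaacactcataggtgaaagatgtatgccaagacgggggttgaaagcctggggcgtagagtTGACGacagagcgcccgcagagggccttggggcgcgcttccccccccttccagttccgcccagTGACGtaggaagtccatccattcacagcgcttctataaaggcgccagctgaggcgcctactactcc
Junb: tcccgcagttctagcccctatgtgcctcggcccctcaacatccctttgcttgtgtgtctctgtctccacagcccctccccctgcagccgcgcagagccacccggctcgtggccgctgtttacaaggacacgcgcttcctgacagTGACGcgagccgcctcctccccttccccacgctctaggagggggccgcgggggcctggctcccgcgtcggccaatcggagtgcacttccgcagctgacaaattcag
Jun: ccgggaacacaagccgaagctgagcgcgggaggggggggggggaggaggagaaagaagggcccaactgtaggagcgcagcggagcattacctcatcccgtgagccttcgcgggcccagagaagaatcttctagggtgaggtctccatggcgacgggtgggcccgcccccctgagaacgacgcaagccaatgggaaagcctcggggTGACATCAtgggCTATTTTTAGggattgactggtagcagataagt

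Motifs were searched on both strands and were chosen after the sequences had been seen. TGACG was found in Fos at positions -129 and -66, counted at its first base from the start. It was also found in Junb at -106 and in Fosb at -60. The Fosb match lies inside the interval that RefSeq lists for the Fosb gene itself. Of 32851 promoter windows of 250 bases, 17.8% hold TGACG. TGACATCA was found in Jun at -45 (2.93% of windows), and the MEF2 motif in Jun at -33 (2.92% of windows). The full palindrome TGACGTCA (1.55% of windows), the consensus TGACTCA (4.46%) and the CArG box that SRF binds (1.47%) were in 0 of the 7 members' windows. The windows of Fosl2, Jund and Batf3 held 0 of the motifs searched. A match describes the letters only. Sites more than 250 bases before the start were not searched. The lack of a CArG box therefore holds for these windows and not for the whole promoter of Fos or another member.

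Only summaries over libraries were used: for each comparison a log2 change with its standard error (SE), and for each condition 1 pooled FPKM with an interval. Values per library and the depth of each library are not known here, so whether the libraries of 2 groups overlap cannot be given. Rai1 itself does not check the arm labels: its nascent RNA differed between shRai1 and shCtrl by a log2 of 0.16 (SE 0.073, adjusted p = 0.357) in vehicle, -0.12 (SE 0.064, adjusted p = 1.00) in TTX and 0.03 (SE 0.073, adjusted p = 1.00) in BIC in the authors' deposited table from DESeq2. The cell types named in the labels were present in the control arm, since 9 of 9 neuron, 7 of 7 astrocyte and 5 of 5 oligodendrocyte precursor markers stood at 1 FPKM or more in vehicle. Of microglial markers 5 of 6 did so, and of endothelial and fibroblast markers 0 of 4 each. Summed neuron markers were at 548 to 625 FPKM over the 3 control conditions, and summed precursor markers at 92.0 to 129. In such bulk cultures, fewer cells of a type and less RNA per cell cannot be told apart.

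In the control arm with vehicle, the family's nascent RNA was mostly Fos, Junb and Fosb. In the authors' deposited table of FPKM (scaled by gene length and library depth, so genes can be compared), Fos was at 569 (interval 410.0 to 727), Junb at 352 (263 to 441) and Fosb at 338 (242 to 435). Jund followed at 87.1 (67.4 to 107), Jun at 83.5 (63.8 to 103) and Fosl2 at 81.6 (62.8 to 100.4) FPKM. The first 3 intervals overlap their neighbours in this order and so do the last 3, whereas those of Fosb and Jund do not overlap. Fosl1 was at 1.06 and Batf3 at 0.877 FPKM, and both intervals reach 0.

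With TTX the order changed. Junb came first in the authors' deposited table at 95.4 FPKM (73.9 to 117), then Fos at 76.9 (59.4 to 94.5), Jund at 65.4 (50.6 to 80.1) and Jun at 55.2 (42.7 to 67.6). Fosb was at 39.8 (30.7 to 48.9) and Fosl2 at 18.0 (13.8 to 22.1). Neighbours overlapped in this order except Fosb and Fosl2. With BIC the authors' deposited table gives Fos 839.6 FPKM (612 to 1068), Fosb 547 (389.7 to 704), Junb 419 (319 to 518), Jun 238 (182 to 295), Fosl2 179 (134 to 224) and Jund 92.9 (72.1 to 114). Jun and Fosl2 then stood above Jund, the interval of each lying above that of Jund. Fosl1 was listed at 0.415 FPKM with TTX and 0.714 with BIC, and Batf3 at 0 in both.

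**Figure D1:**
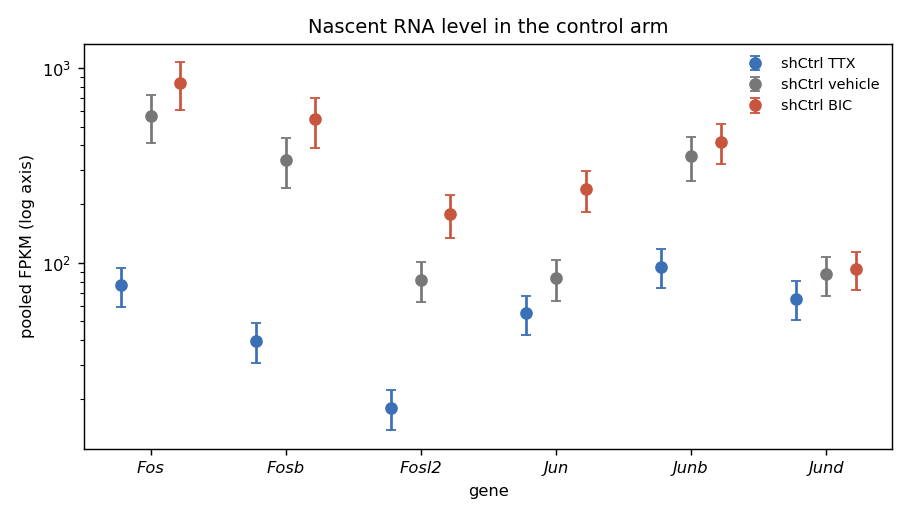
Pooled FPKM in the control arm on a log axis, for the 6 members above 10 FPKM; points are the authors' pooled values and bars their deposited intervals. Fos runs from 76.9 with TTX to 839.6 with BIC, whereas Jund stays between 65.4 and 92.9.

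Summed over the 8 genes, the family stood at 1513 FPKM in vehicle, 351 with TTX and 2315 with BIC. The Fos genes made up 989.7, 135 and 1566 FPKM of these sums and the Jun genes 523, 216 and 749.6. The ratio of the Fos sum to the Jun sum was therefore 1.89 in vehicle, 0.626 with TTX and 2.09 with BIC. These sums come from pooled values and carry no error or test. Fos alone was 37.6% of the sum in vehicle, 21.9% with TTX and 36.3% with BIC. Jund, a member known for steady expression, was 5.76%, 18.6% and 4.01%. Jun was 5.52% in vehicle and 10.3% with BIC, and with TTX it made up 15.7%.

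**Figure D2:**
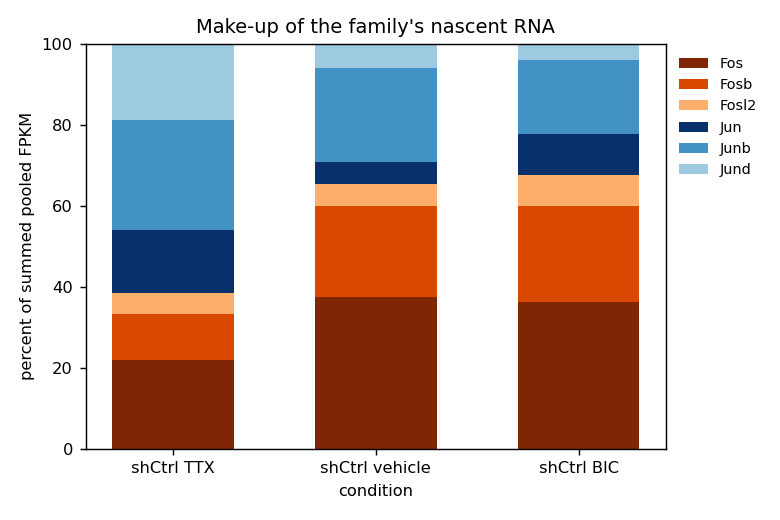
Share of each gene in the summed pooled FPKM of the family, in percent, for the 3 control conditions. The Jun genes, Junb included, take the larger part of the bar with TTX and the smaller part in vehicle and with BIC.

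Blocking action potentials lowered 7 members in the control arm: Fos, Fosb, Fosl1, Fosl2, Jun, Junb and Jund. Among the 7 members given an adjusted p by the authors' deposited table, 7 were below 0.05, where 14.9% of all genes tested were called lower. The 8 members had a median log2 change of -1.21, against 0.00062 for all genes tested. Batf3 (log2 0.35, SE 0.41) had too few reads for an adjusted p: its mean normalized count over all libraries was 3.48. The other members had mean counts of 107 (Fosl1) to 6663 (Fosl2).

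Fosb, Fos and Fosl2 fell furthest. In the authors' deposited table (DESeq2), Fosb, which encodes full-length FosB and the long-lived ΔFosB, changed by -2.72 (SE 0.29, adjusted p = 4.79e-19), and its level with TTX was 15.2% of vehicle. Fos, the founding member, changed by -2.68 (SE 0.24, adjusted p = 7.57e-28), to 15.6%. Fosl2, which encodes Fra-2, changed by -2.46 (SE 0.099, adjusted p = 2.71e-133), to 18.1%. The SE of Fosl2 was the smallest of the family, and its p ranked 3rd among all genes of that deposited table. The intervals of these 3 changes overlap: -3.14 to -2.22 for Fos, -3.29 to -2.15 for Fosb and -2.66 to -2.27 for Fosl2.

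Junb followed, and Jun, Jund and Fosl1 fell less. Junb, an immediate-early partner of Fos, changed by -1.74 (SE 0.25, adjusted p = 6.17e-11) and reached 29.9% of vehicle in the authors' deposited table (DESeq2). Jun, the target of Jun N-terminal kinases, changed by -0.60 (SE 0.21, adjusted p = 0.0164), to 65.9%. Jund changed by -0.46 (SE 0.14, adjusted p = 0.00500), to 72.6%. The intervals of Jun (-1.01 to -0.20) and Jund (-0.73 to -0.19) lie above that of Junb (-2.23 to -1.26). Differences between members were not tested, as the covariance between genes is not known here.

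In the shRai1 arm TTX lowered 5 members, Fos, Fosb, Fosl1, Fosl2 and Junb, where 16.8% of all genes tested were called lower. In the authors' deposited table from DESeq2, Fosl2 changed by -2.35 (SE 0.087, adjusted p = 1.51e-155), the smallest p of all genes in that comparison. Fosb changed by -2.01 (SE 0.27, adjusted p = 1.43e-12), Fos by -1.84 (SE 0.21, adjusted p = 2.89e-16) and Junb by -1.46 (SE 0.23, adjusted p = 2.42e-09). Jun was at -0.26 (SE 0.19, adjusted p = 0.321) and Jund at -0.23 (SE 0.12, adjusted p = 0.148), neither past the threshold. The median of the 8 members was -1.12, against -0.0015 for all genes tested. Cell type markers moved with TTX as well. Among precursor markers, 4 of 5 were lower in shCtrl (median log2 -0.70) and 4 of 5 were higher in shRai1 (median 0.47), per the authors' deposited table. Of neuron markers 4 of 9 were lower and 1 higher in shCtrl, and 3 were lower in shRai1. Of astrocyte markers 3 of 7 were lower in shCtrl, and 1 was lower and 1 higher in shRai1. In the opposite direction, 1 of 4 mature oligodendrocyte markers was higher in shCtrl, and 1 of 3 endothelial markers with reads was higher in shRai1. The part of these markers in the members' changes was not tested.

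Raising activity gave another order of members. With BIC in the control arm 3 members rose, Fosl1, Jun and Fosl2, where 17.4% of all genes tested were called higher. Jun changed in the authors' deposited table (DESeq2) by 1.29 (SE 0.22, adjusted p = 8.56e-08), to 244% of vehicle. Fosl2 changed by 0.85 (SE 0.11, adjusted p = 9.09e-14), to 180%. Fosl1 changed by 1.30 (SE 0.21, adjusted p = 1.06e-08), a value with a limit given further on. Fos was at 0.42 (SE 0.25, adjusted p = 0.210), Fosb at 0.49 (SE 0.31, adjusted p = 0.226) and Junb at 0.09 (SE 0.27, adjusted p = 0.842). Their intervals run up to 0.92, 1.10 and 0.61. Jund was at -0.0033 (SE 0.15, adjusted p = 0.991). The median of the 8 members was 0.46, against -0.0010 for all genes tested. The 2 genes with the highest pooled FPKM in the family with BIC, Fos and Fosb, are thus among those whose rise did not pass the test.

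In the shRai1 arm 7 of 8 members rose with BIC, all but Batf3, where 21.3% of all genes tested were called higher. Jun had the highest change here, at 1.89 (SE 0.18, adjusted p = 1.95e-23), in the authors' deposited table (DESeq2). Among the Fos genes, Fos changed by 1.33 (SE 0.21, adjusted p = 2.76e-09), Fosb by 1.27 (SE 0.27, adjusted p = 9.20e-06), Fosl1 by 1.24 (SE 0.18, adjusted p = 2.16e-11) and Fosl2 by 0.97 (SE 0.085, adjusted p = 4.90e-29). Junb changed by 0.72 (SE 0.22, adjusted p = 0.00436) and Jund by 0.60 (SE 0.12, adjusted p = 4.26e-06), also in the authors' deposited table. The median of the 8 members was 1.11, against 0.0042 for all genes tested. More genes were called in this arm as a whole: 42.5% of those tested changed with BIC in shRai1, which has 3 libraries in each group, and 34.4% in shCtrl, which has 2. With BIC 4 of 9 neuron markers were higher and 4 lower in each arm, and of 6 microglial markers 2 were higher in shCtrl and 1 in shRai1. Of 5 precursor markers 1 was lower in shCtrl, of 7 astrocyte markers 1 was lower in shCtrl and 1 higher in shRai1, and of 4 mature oligodendrocyte markers 1 was lower in each arm. Their part in the members' changes was not tested.

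**Figure D3:**
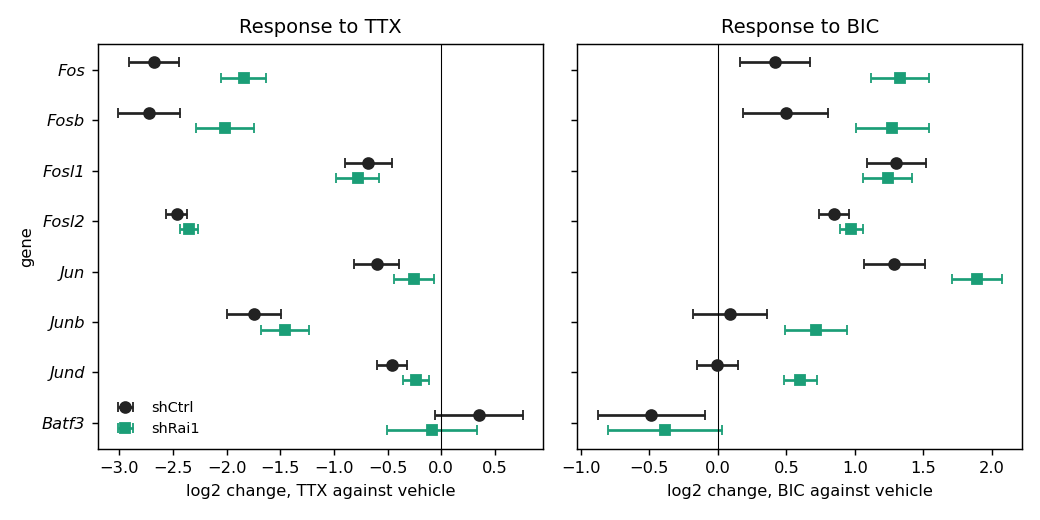
Log2 change of each member with TTX and with BIC against vehicle, in shCtrl and shRai1, from the authors' deposited table; bars are 1 SE. With TTX Fos, Fosb and Fosl2 lie below -1.8 in both arms, and with BIC Jun lies above 1.2 in both arms.

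Setting BIC against TTX removes the vehicle libraries from the comparison. The contrast was computed here as the difference of the deposited changes, with an SE that is an upper limit. In shCtrl 6 members were higher with BIC than with TTX, all but Jund and Batf3, where 17.1% of all genes tested were called higher. The log2 difference was 3.31 (SE 0.15) for Fosl2, 3.22 (SE 0.42) for Fosb, 3.10 (SE 0.35) for Fos, 1.98 (SE 0.30) for Fosl1, 1.89 (SE 0.30) for Jun and 1.83 (SE 0.36) for Junb. Their adjusted p ran from 8.04e-110 for Fosl2 to 4.06e-06 for Junb (Wald test with Benjamini-Hochberg adjustment). Jund differed by 0.46 (SE 0.21, adjusted p = 0.0744 by the same test). In shRai1 7 members were higher with BIC, Jund included, where 20.3% of all genes tested were called higher. There Fosl2 differed by 3.32 (SE 0.12), Fosb by 3.29 (SE 0.38), Fos by 3.17 (SE 0.30), Junb by 2.17 (SE 0.32), Jun by 2.15 (SE 0.26), Fosl1 by 2.02 (SE 0.27) and Jund by 0.83 (SE 0.17). The whole range of Fos, Fosb and Fosl2 was thus 3.10 to 3.32 on the log2 scale in both arms. In each arm 4 of 9 neuron markers were higher and 4 lower. Of 5 precursor markers 2 were higher in shCtrl (median log2 0.50) and 1 was lower in shRai1 (median -0.47). Of 6 microglial markers 1 was higher and of 4 mature oligodendrocyte markers 1 was lower in each arm. Astrocyte markers in shRai1 were 2 of 7 higher and 1 lower, and 1 of 4 fibroblast markers was lower there. The part of these markers was not tested.

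The position of vehicle within the range from TTX to BIC differed between members. In the control arm the vehicle level of Junb stood at 95.1% of the log2 range from TTX to BIC, that of Fos at 86.5%, Fosb at 84.6% and Fosl2 at 74.4%. Fosl1 stood at 34.2% and Jun at 31.9%. In the shRai1 arm the vehicle level stood lower for Junb (67.0%), Fosb (61.3%), Fos (58.1%) and Jun (11.97%), while Fosl2 was at 70.7% and Fosl1, at 38.6%, stood higher. No position is given for Jund, whose range in shCtrl did not pass the test. These positions are ratios of the deposited changes, given without a test, and the vehicle libraries enter the distance from TTX to vehicle but not the whole range.

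**Figure D4:**
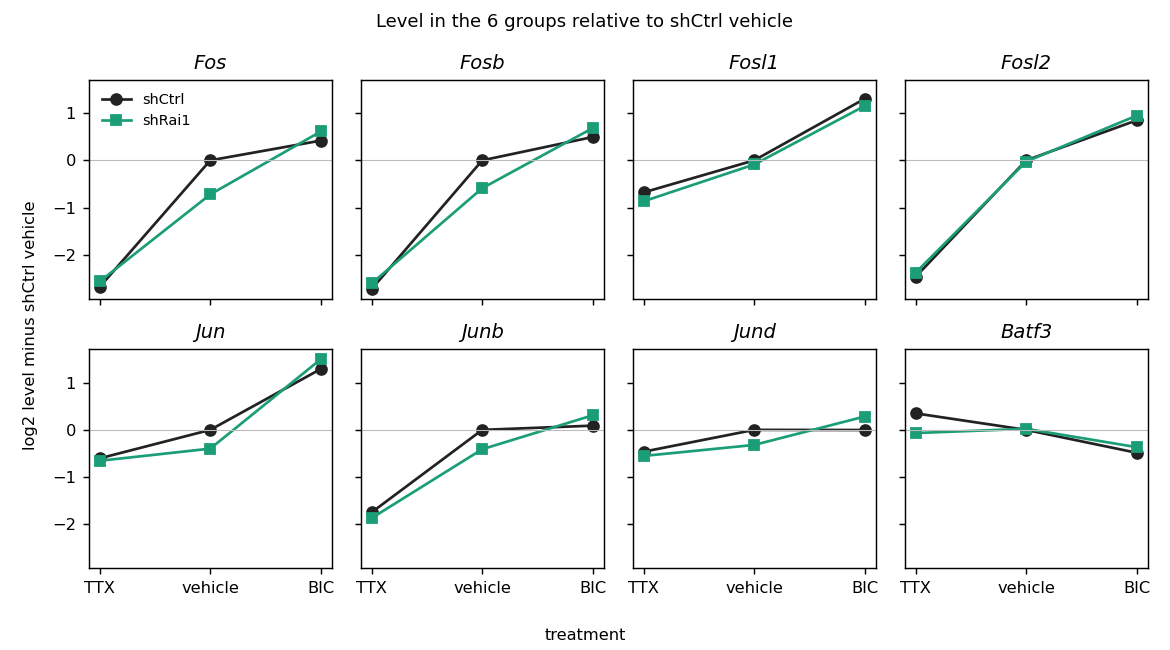
Log2 level of each member relative to shCtrl with vehicle, by treatment and arm, from the authors' deposited table; 1 panel per gene. For Fos the arms lie 0.11 apart with TTX and 0.72 apart in vehicle, and for Fosl2 they lie within 0.1 of each other at each treatment.

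The knockdown was read directly in each treatment as shRai1 against shCtrl. In vehicle the authors' deposited table from DESeq2 holds 0 members below the 0.05 threshold after adjustment, where 0.857% of all genes tested were called in either direction. At an unadjusted p under 0.05, Fos, Fosb and Jund were lower, where 6.62% of all genes tested were. Fos was at -0.72 (SE 0.23, adjusted p = 0.128), or 60.7% of the control, in the authors' deposited table (DESeq2). Its 95% interval runs from -1.18 to -0.26. Fosb was at -0.59 (SE 0.29, adjusted p = 0.429), Junb at -0.41 (SE 0.25, adjusted p = 0.562), Jun at -0.40 (SE 0.21, adjusted p = 0.461) and Jund at -0.32 (SE 0.14, adjusted p = 0.331). Fosl2 was at -0.03 (SE 0.096, adjusted p = 0.951), with an interval of -0.22 to 0.16. The median of the 8 members was -0.36, against -0.0066 for all genes tested. In the same comparison 4 of 5 precursor markers were lower (median log2 -0.78), while 1 of 9 neuron markers was higher. The part of these markers in the members' values was not tested.

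With TTX 0 members passed in the authors' deposited table (DESeq2), and 0 had an unadjusted p under 0.05, where 0.0283% and 3.3% of all genes tested did. The members' log2 differences, shRai1 minus shCtrl, lay between -0.42 (Batf3) and 0.12 (Fosb), with Fos at 0.11 (SE 0.21, interval -0.31 to 0.54). With BIC 0 members passed, where 0.00944% of all genes tested did, and Jund alone was higher at an unadjusted p under 0.05 (1.59% of all genes tested). Jund was, in the authors' deposited table (DESeq2), at 0.29 (SE 0.14, adjusted p = 1.00), Junb at 0.22 (SE 0.25), Jun at 0.21 (SE 0.20), and Fos and Fosb at 0.19 (SE 0.23 and 0.29). The medians of the 8 members were -0.07 with TTX and 0.19 with BIC, against -0.0049 and 0.0023 for all genes tested. Of 5 precursor markers 1 was higher with TTX (median log2 0.50) and 1 lower with BIC (median -0.49), in both cases Pdgfra, and their part was not tested.

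**Figure D5:**
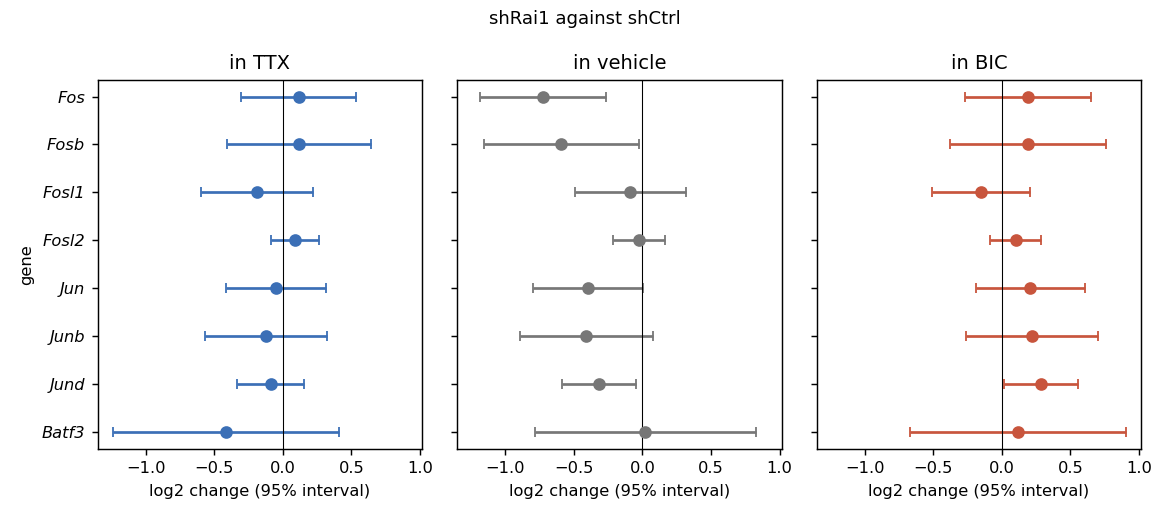
Log2 difference of shRai1 against shCtrl for each member in vehicle, TTX and BIC, from the authors' deposited table, with 95% intervals. In vehicle the intervals of Fos, Fosb and Jund lie below 0, with TTX each of the 8 intervals holds 0, and with BIC the interval of Jund lies above 0.

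Whether a response differed between the arms was tested as an interaction, the shCtrl response being subtracted from the shRai1 response. For TTX 0 members passed, where 0.943% of all genes tested were called, and Fos alone was higher at an unadjusted p under 0.05 (4.71% of all genes tested). The response of Fos to TTX was 0.84 less negative in shRai1 (SE 0.32, adjusted p = 0.254, Wald test with Benjamini-Hochberg adjustment). Fosb differed by 0.71 (SE 0.39, adjusted p = 0.620 by the same test). Jun was at 0.35 (SE 0.28), Junb at 0.29 (SE 0.34) and Jund at 0.23 (SE 0.19). Fosl2 was at 0.11 (SE 0.13), with an interval of -0.14 to 0.37. In this contrast 5 of 5 precursor markers were higher (median log2 1.16) and 1 of 9 neuron markers was lower. The part of these markers was not tested.

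For BIC 0 members passed, where 0.0219% of all genes tested were called, and Fos, Jun and Jund were higher at an unadjusted p under 0.05 (2.09% of all genes tested, and 3.03% in either direction). The response to BIC was larger in shRai1 by 0.91 for Fos (SE 0.33), by 0.60 for Jund (SE 0.20) and by 0.60 for Jun (SE 0.29), each with an adjusted p of 1.00 (Wald test with Benjamini-Hochberg adjustment). Fosb was at 0.78 (SE 0.41), Junb at 0.63 (SE 0.35) and Fosl2 at 0.13 (SE 0.14, interval -0.14 to 0.40). The medians of the 8 members were 0.26 for TTX and 0.60 for BIC, against -0.0015 and 0.012 for all genes tested. Of 5 precursor markers 0 were called in the BIC interaction (median log2 0.47), and their part was not tested. Both interactions and the knockdown in vehicle share the vehicle libraries, 2 of them in shCtrl, so their values are not separate evidence. An effect called in 1 arm and not in the other, as for Fos with BIC, is therefore not shown to differ between the arms.

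Fosl1 and Batf3 need care. Fosl1 lies on chromosome 19 at 5447698 to 5457563 (mm9), an interval the authors' deposited table of FPKM lists identically for Ccdc85b. With TTX Fosl1, which encodes Fra-1, changed by -0.68 (SE 0.22, adjusted p = 0.00890) in shCtrl and -0.78 (SE 0.20, adjusted p = 0.000590) in shRai1 in the authors' deposited table (DESeq2). The reads the comparisons count for Fosl1 do not follow its FPKM: the mean normalized count per kilobase and FPKM was 12.5 for Fosl1 and 2.41 to 3.28 for Fos, Fosb, Fosl2, Jun, Junb and Jund. With BIC in shCtrl the deposited change of Fosl1 was 1.30, while its pooled FPKM in the authors' deposited table was 1.06 (interval 0 to 3.89) in vehicle and 0.714 (0 to 2.45) with BIC. These intervals overlap, and the log2 ratio was -0.26 with a pseudocount of 1, -0.51 with 0.1 and -0.56 with none. Ccdc85b changed by -1.43 (SE 0.14, adjusted p = 8.07e-22) in the authors' deposited table from DESeq2. Which transcript the Fosl1 values stand for is not known here. Batf3, known from dendritic cells, lies on chromosome 1 at 192922293 to 192932822 and had 0 calls in the 11 comparisons, 0 also at an unadjusted p under 0.05, with SEs of 0.39 to 0.59.

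The remaining members have intervals of their own in mm9. Fos lies on chromosome 12 at 86814851 to 86818219, Fosb on 7 at 19888045 to 19895394 and Fosl2 on 5 at 32438845 to 32460212. Jun lies on 4 at 94715727 to 94718913, and Junb and Jund both lie on 8, at 87500808 to 87502647 and 73221638 to 73224515. Jun and Junb intervals span 3187 and 1840 bases, whereas Fosl2 spans 21368, and nascent reads are counted over the whole interval, introns included.

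The genes most like each member were those at the smallest Euclidean distance over 5 deposited log2 changes (both drugs in each arm, and the knockdown in vehicle), among the 12333 genes averaging 50 or more normalized counts. Fosb was nearest to Fos (distance 0.24), then Penk, which encodes an opioid precursor (0.39), and Arc, an immediate-early regulator of AMPA receptors (0.46). For Fosb the nearest were Fos, Rnd3 (0.26) and Arc (0.37). For Fosl2 they were Dusp4 (0.39), Maff (0.50) and Vgf (0.65), and for Junb Dusp5 (0.18), Homer1 (0.27) and Dusp6 (0.27), the Dusp genes encoding phosphatases of MAP kinases. Jun had Lrrk2 nearest (0.35) and ranked only 813th from Fos, whereas Fosl2 ranked 11th and Junb 22nd. Jund had Corin and Hspa5 nearest, both at 0.19.

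Other basic leucine zipper genes moved in both directions. Of 24 such genes outside the family, TTX called 1 higher and 8 lower in shCtrl (11.8% and 14.9% of all genes tested) and BIC called 9 higher and 5 lower (17.4% and 17%). In shRai1 the counts were 1 higher and 12 lower with TTX, and 10 higher and 5 lower with BIC (13.7% and 16.8%, and 21.3% in each direction, of all genes tested). Their median log2 changes were -0.23 and 0.05 in shCtrl, beside 0.00062 and -0.0010 for all genes tested. Atf3, a stress-induced partner of Jun, changed in the authors' deposited table by -2.54 (SE 0.26) with TTX and 1.80 (SE 0.28) with BIC in shCtrl. Nfil3, a repressor, changed by -1.76 (SE 0.12) and 1.28 (SE 0.13), and Maff, a small Maf protein, by -2.08 (SE 0.19) and 0.79 (SE 0.19), in the same deposited comparisons. The pooled FPKM of Maff fell less with TTX than this change, from 13.4 in shCtrl vehicle to 8.91. Bach1 and Bach2, which pair with small Maf proteins, changed with BIC by 0.88 (SE 0.088) and 1.34 (SE 0.10), though Bach2 shares its interval with Bach2os.

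Of the genes upstream of the family, 26 kinases and factors were listed. In shCtrl TTX called 5 higher and 7 lower and BIC 9 higher and 7 lower, where 11.8%, 14.9%, 17.4% and 17% of all genes tested were called. In shRai1 the counts were 3 higher and 8 lower with TTX, and 9 higher and 9 lower with BIC. Of all genes tested there, 13.7% and 16.8%, and 21.3% in each direction, were called so. The medians in shCtrl were 0.0033 and -0.04. Srf, whose product binds the serum response element of Fos, changed in the authors' deposited table by -1.21 (SE 0.11) with TTX and -1.02 (SE 0.12) with BIC, so it fell with both drugs in shCtrl; its interval also holds Mir6976. Rps6ka5, a kinase of CREB and histone H3, changed by 0.89 (SE 0.088) and -0.91 (SE 0.10). Mapk8, a kinase of Jun, changed by -0.32 (SE 0.083) and 0.83 (SE 0.092), and Rps6ka3, a kinase of the RSK family, by -0.56 (SE 0.12) and 1.06 (SE 0.13), in the authors' deposited table.

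Of 7 genes that control the turnover of AP-1 RNA or protein, 6 fell with TTX in shCtrl and 1 rose with BIC, where 14.9% and 17.4% of all genes tested did. In shRai1 4 fell and 1 rose with TTX and 4 rose with BIC, where 16.8%, 13.7% and 21.3% of all genes tested did. Rfwd2, a ubiquitin ligase of Jun, changed in the authors' deposited table by -0.55 (SE 0.098) with TTX and 0.86 (SE 0.11) with BIC. Zfp36, which binds AU-rich RNA such as that of Fos, changed by -1.15 (SE 0.22) with TTX and was at -0.42 (SE 0.23) with BIC. Zfp36l2, a relative, changed by -0.85 (SE 0.13) and Fbxw7, another ligase of Jun, by -0.57 (SE 0.085) with TTX. The intervals of Rfwd2 and Fbxw7 each hold another listed transcript. Elavl1, which stabilises such RNA, was at 0.15 (SE 0.085) with BIC and Itch, a ligase of Jun, at -0.13 (SE 0.080), neither past the threshold. With the knockdown in vehicle, where 0.857% of all genes tested were called, 2 of the 7 were lower, Zfp36l1 by -0.48 (SE 0.12, adjusted p = 0.0144) and Itch by -0.25 (SE 0.071, adjusted p = 0.0458), in the authors' deposited table from DESeq2. The same 2 genes passed in the TTX interaction, which shares those vehicle libraries and called 0.943% of all genes tested: Zfp36l1 at 0.62 (SE 0.16, adjusted p = 0.0184) and Itch at 0.35 (SE 0.095, adjusted p = 0.0281, Wald test with Benjamini-Hochberg adjustment). Precursor markers were lower in the first of these contrasts (4 of 5) and higher in the second (5 of 5), and their part was not tested.

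Of 22 genes described in the literature as AP-1 targets, TTX called 8 lower and BIC 10 higher in shCtrl, and 9 lower and 11 higher in shRai1. Of all genes tested 14.9%, 17.4%, 16.8% and 21.3% were called so, and 17 to 19 of the 22 had an adjusted p in these comparisons. Their medians in shCtrl were -0.31 and 0.45. Pdyn, which encodes the dynorphin precursor, changed with BIC by 4.46 (SE 0.29) in the authors' deposited table, and Emp1, a membrane protein, by 4.34 (SE 0.25). In shCtrl the pooled FPKM of Pdyn was 0.483 in vehicle and 5.05 with BIC. That of Emp1 was 1.51 and 13.8, so both were low in vehicle and rose less than these changes. Tnc, which encodes tenascin C of the extracellular matrix, changed by 2.07 (SE 0.12) with BIC in the authors' deposited table. Penk and Scg2, precursors of secreted peptides, changed with TTX by -2.81 (SE 0.14) and -2.06 (SE 0.15). These 2 were also the targets called with the knockdown in vehicle (0.857% of all genes tested), Penk at -0.78 (SE 0.13, adjusted p = 1.89e-06) and Scg2 at -0.72 (SE 0.14, adjusted p = 0.000303) in the authors' deposited table from DESeq2. Their responses to TTX differed between the arms, where 0.943% of all genes tested were called: by 0.81 for Penk (SE 0.18, adjusted p = 0.00487) and by 0.85 for Scg2 (SE 0.20, adjusted p = 0.00921, Wald test with Benjamini-Hochberg adjustment). For BIC the interaction of Scg2 passed at 0.85 (SE 0.19, adjusted p = 0.0308 by the same Wald test), 1 of 4 genes called, and that of Penk was at 0.74 (SE 0.18, adjusted p = 0.141). With the knockdown in vehicle 4 of 5 precursor markers were lower, and in the TTX interaction 5 of 5 were higher. Their part in the values of Penk and Scg2 was not tested.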

How the data were processed

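Bru-seq reads from 16 libraries in 6 groups were aligned to mm9 with TopHat2 2.1.0 and Bowtie2 2.2.6 and compared with DESeq2, per the submitters' processing notes. The authors' 7 deposited tables list 22919 genes, of which 21192 have a mean count above 0. They give a mean normalized count, a signal the authors averaged over libraries, a log2 change, its SE, a Wald score, and p-values that the authors adjusted after filtering low genes, per the file headers. The deposited table of FPKM gives 1 value and interval per condition, per the file headers. Its starts were printed 1-based. The FPKM columns headed as knockdown were not used as values of a treatment. No values per library were used, so the depth is unknown, and 0 columns of values per sample were left out. ChIP-seq from 12 samples is not used here.

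The vehicle knockdown table has no gene column. Its rows were named by their mean count where unique, which named 20107 genes; log2 changes closed across the tables to within 1e-09. Interactions and BIC against TTX were computed from the deposited changes, with SEs from the summed squares. They were tested by a Wald test (two-sided) and adjusted after Benjamini and Hochberg over the 18241 named genes averaging 0.1 FPKM or more. The scripts (Python 3.11.15, pandas 2.3.3, scipy 1.17.1) were tested on simulated data. Calls have an adjusted p under 0.05. Alternatives were thresholds of 0.01 and 0.1, other filters before adjustment, centring on the median, SEs from the knockdown tables and a pseudocount of 0.1 on FPKM.

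The members and the gene lists were chosen with earlier results of these data known. From each list the text names the 4 genes with the smallest p for BIC and the 2 with the smallest p for TTX in shCtrl, and genes called for the knockdown; 1 gene this rule names is not reported here.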

Additional observations from a re-analysis of the deposited data

Results flagged for a closer look

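The deposited FPKM columns headed as knockdown were outside the comparisons above. In the column headed knockdown TTX, 6 members stood above the interval of the control TTX column. Fos was listed at 878 FPKM (interval 637 to 1119), against 76.9 in the control column. Fosb was listed at 548, against 39.8, and Fosl2 at 178, against 18.0. Jun was listed at 252, against 55.2, Junb at 443, against 95.4, and Jund at 108, against 65.4. In the column headed knockdown vehicle Fos was at 93.3 FPKM, and in that headed knockdown BIC at 365.6. Taken as headed, the columns put Fos higher with TTX than with vehicle by a log2 of 3.23, whereas the authors' deposited table of log2 changes gives -1.84 in shRai1. The log2 ratio of the column headed vehicle to that headed BIC lay within 0.36 of the deposited shRai1 change with TTX for Fos, Fosb, Fosl2, Jun, Junb and Jund (Fosl2 -2.23, Jun -0.25, Junb -1.54). The log2 ratio of the column headed TTX to that headed BIC lay within 0.082 of the deposited shRai1 change with BIC for these 6 genes (Fosl2 0.93, Jun 1.92, Junb 0.71). The values of these 6 genes thus follow the deposited comparisons if the column headed BIC is read as vehicle, that headed vehicle as TTX and that headed TTX as BIC. The columns were not renamed here, since no label gives this order.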

How the results depend on the processing

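Of 433 values of members under the alternatives, 430 kept their direction and their side of the threshold. Among these alternatives only centring on the median could alter a direction, since the others reused the same log2 change. Jun with TTX in shCtrl (-0.60, adjusted p = 0.0164 with DESeq2) did not pass at 0.01, and Jund in BIC against TTX in shCtrl (0.46, adjusted p = 0.0744, Wald test) passed at 0.1. Jund with BIC in shCtrl went from -0.0033 to 0.040 when changes were centred on the median. With a pseudocount of 0.1 in place of 1, the FPKM ratios to vehicle kept their direction, and those of Fosl1 went from -0.54 to -1.17 with TTX and from -0.26 to -0.51 with BIC. Centring moved the median of all genes by at most 0.044. Over all genes, the knockdown in vehicle called 122 at 0.05, 35 at 0.01 and 204 at 0.1. The knockdown in TTX called 6, and 2 at 0.01. The knockdown in BIC called 2, 1 at 0.01, 5 at 0.1 and 5 when adjusted over genes averaging 0.5 FPKM or more. The TTX interaction called 172, 62 and 272, and the BIC interaction 4, with 0 at 0.01. For the 0 at 0.01, 552 genes had an unadjusted p under 0.05 in the BIC interaction. No paired analysis was possible because the comparisons hold no values per library, and for the same reason no replicate could be left out. With 2 libraries in shCtrl vehicle and shCtrl BIC and depth unknown, 1 library could decide a value without being seen.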

Other observations

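Among the other basic leucine zipper genes, small Maf genes are set beside Maf and Mafa, a grouping chosen after their values were seen. The small Maf proteins pair with Bach proteins and lack the activation domain that Maf and Mafa carry. In the authors' deposited table from DESeq2, Mafk changed with TTX by -1.30 (SE 0.18) in shCtrl and -0.95 (SE 0.16) in shRai1, and with BIC by 1.09 (SE 0.18) and 1.17 (SE 0.14). Maff changed with BIC by 0.79 (SE 0.19) and 1.25 (SE 0.15). Mafg did not pass with BIC, at 0.10 (SE 0.15) and 0.21 (SE 0.12). In the opposite direction, Maf changed with BIC by -0.48 (SE 0.20) in shCtrl and -0.67 (SE 0.16) in shRai1 in the authors' deposited table. Mafa was at -0.49 (SE 0.31) in shCtrl, which did not pass, and changed by -0.78 (SE 0.27) in shRai1.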
